A study of Mus musculus with 16 samples.

Results

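The lysosomal genes described here are 48 genes of 54838 in the count files: 18 glycan and lipid hydrolases with their activators, 11 cathepsins and other proteases, 10 subunits of the vacuolar proton pump (V-ATPase), and 9 membrane proteins and regulators. They were listed by symbol and matched through GENCODE M21 to the gene identifiers of the files. All 48 passed the filter on low counts, which left 12612 genes to test. The cells were bone marrow-derived macrophages, grown from marrow in medium conditioned by L929 cells and then treated in serum-free medium. RNA sequencing was done on 16 libraries in 4 groups of 4. The groups were TMP195+TNFα (5 µM TMP195, an inhibitor of class IIa histone deacetylases, 1 h before 50 ng/ml TNFα for 24 h), TPCA-1+TNFα (500 nM TPCA-1, an inhibitor of the kinase IKK-beta, 1 h before the same TNFα), TNFα without inhibitor, and DMSO. All 4 groups carry the same genotype label, B6.129P2-Apoetm1Unc/J, with the strain given as C57BL/6J, so the controls lack functional Apoe as well. The age and sex of the mice are not in the labels, nor is it stated whether the cells given TNFα alone also received DMSO. Nor do they say whether replicates were separate animals or cultures. The p-values below therefore reflect only how far libraries of a group vary, which may be technical.

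Lysosomes degrade material that macrophages take up, including lipoprotein, cell debris and matrix. Their hydrolases work in an acid interior, which the V-ATPase maintains by pumping protons with the energy of ATP: its membrane part (V0) carries the protons and its cytosolic part (V1) splits ATP. Many genes of hydrolases and pump subunits carry an E-box in their promoters, through which TFEB, TFE3 and MITF activate them when these factors enter the nucleus.

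Counted reads per library, in units of 1000000, ran from 7.49 to 31.6. TPCA-1+TNFα 2 was the shallowest, and 44.0% of its reads were unmapped, against 4.003% to 7.115% in the other 15 libraries. The counts of the 48 genes called in comparisons with TPCA-1+TNFα are therefore given with and without it. Read shares, marker levels and the lysosomal genes outside the 48 are given only with it included. Apoe, the gene disrupted by the genotype, had 1 to 11 reads per library. The 8 macrophage markers, among them Adgre1, Csf1r, Cd68, Itgam, Lyz2, Mertk and Fcgr1, summed to 12174 to 17344 CPM (counts per 1000000 reads) in TMP195+TNFα, 12445 to 20428 CPM in TPCA-1+TNFα, 17179 to 25121 CPM in TNFα and 15930 to 24706 CPM in DMSO, and none was at 0. Of these 8 markers, 0 were higher and 1 lower in TMP195+TNFα against TNFα, 1 higher and 4 lower in TPCA-1+TNFα against TNFα, and 1 higher and 4 lower in TNFα against DMSO. The highest summed level of the neutrophil, lymphocyte, dendritic cell, stromal and erythroid marker lists in any library was 1.63 CPM, for the 4 dendritic cell markers. Osteoclast markers summed to 56.9 to 105 CPM, mostly from Nfatc1 (47.5 to 80.2 CPM), with the calcitonin receptor Calcr at 0 in every library and Oscar at 0 in the 4 TNFα libraries. Of 4 osteoclast markers tested, 1 was higher in TMP195+TNFα than in TNFα, 1 was higher in TPCA-1+TNFα than in TNFα, and 0 passed the threshold in TNFα against DMSO. The integrin Itgb3 had 5.20 to 11.8 CPM in TMP195+TNFα, 3.07 to 9.68 CPM in TPCA-1+TNFα, 1.08 to 2.44 CPM in TNFα and 1.68 to 3.90 CPM in DMSO, with log2 change 2.06 ± 0.38, adjusted p = 0.00367 in TMP195+TNFα against TNFα and log2 change 1.65 ± 0.38, adjusted p = 0.00543 in TPCA-1+TNFα against TNFα. Whether the shifts of macrophage and osteoclast markers take part in the changes below was not tested. In bulk RNA, fewer cells of a type and less RNA per cell cannot be told apart.

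Promoters were set beside the expression data because the activating E-box is shared by many of these genes. RefSeq promoter windows of GRCm38.p6, from 250 bases before to 50 bases after the start site, were found for 42 of the 48 genes. The hexamer CACGTG, which reads the same on both strands, was present in 16 of the 42 (38.1%), against 8.09% of the 27025 genes of the promoter table and 12.1% of the 9289 genes that were tested in these libraries and had a window. By class it was in 35.3% of 17 hydrolase promoters, 44.4% of 9 protease promoters, 42.9% of 7 V-ATPase promoters and 33.3% of 9 promoters of membrane proteins and regulators. The 10-base palindrome that extends the hexamer by GT on its left and AC on its right was found in 1 of the 42, Cln3 (2.38%), against 0.37% of all genes in the table and 0.872% of the tested genes with a window; every such match also counts as a hexamer match. Stretches of 100 bases are shown for 6 genes whose levels are described below, with each hexamer in capitals. The stretches of Lamp1, Gla and Atp6v0b hold 4, 2 and 2 hexamers, those of Mcoln1 and Glb1 hold 1 each, and that of Ctsc holds none, as does its whole window. Mcoln1 has 1 more hexamer in its window, nearer the start site than the stretch shown.
Mcoln1: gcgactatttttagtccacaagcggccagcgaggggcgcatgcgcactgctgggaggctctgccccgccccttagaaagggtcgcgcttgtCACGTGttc
Lamp1: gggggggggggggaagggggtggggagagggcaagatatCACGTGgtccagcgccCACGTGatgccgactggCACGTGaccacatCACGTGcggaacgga
Glb1: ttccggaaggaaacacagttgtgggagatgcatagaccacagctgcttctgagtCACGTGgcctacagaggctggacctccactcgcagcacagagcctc
Gla: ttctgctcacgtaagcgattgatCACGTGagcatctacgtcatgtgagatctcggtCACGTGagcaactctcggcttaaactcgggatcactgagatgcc
Atp6v0b: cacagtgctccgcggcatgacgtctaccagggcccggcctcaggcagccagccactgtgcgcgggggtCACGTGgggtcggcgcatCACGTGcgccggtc
Ctsc: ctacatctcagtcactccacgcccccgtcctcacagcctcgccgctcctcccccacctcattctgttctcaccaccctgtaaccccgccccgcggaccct
All are written 5′ to 3′ on the strand of the gene and end before the annotated start. The stretch of Mcoln1 lies at chr8:3500357-3500456 (plus strand), that of Lamp1 at chr8:13159061-13159160 (plus strand) and that of Glb1 at chr9:114400976-114401075 (plus strand). The stretch of Gla lies at chrX:134601156-134601255 (minus strand), that of Atp6v0b at chr4:117887334-117887433 (minus strand) and that of Ctsc at chr7:88277985-88278084 (plus strand). A hexamer was present in 5 of 17 promoters of genes lower in TNFα than in DMSO, in 1 of 2 of the genes that were higher, and in 10 of 23 promoters of genes past the threshold in neither direction. A match describes these letters in this window, not binding.

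**Figure D1:**
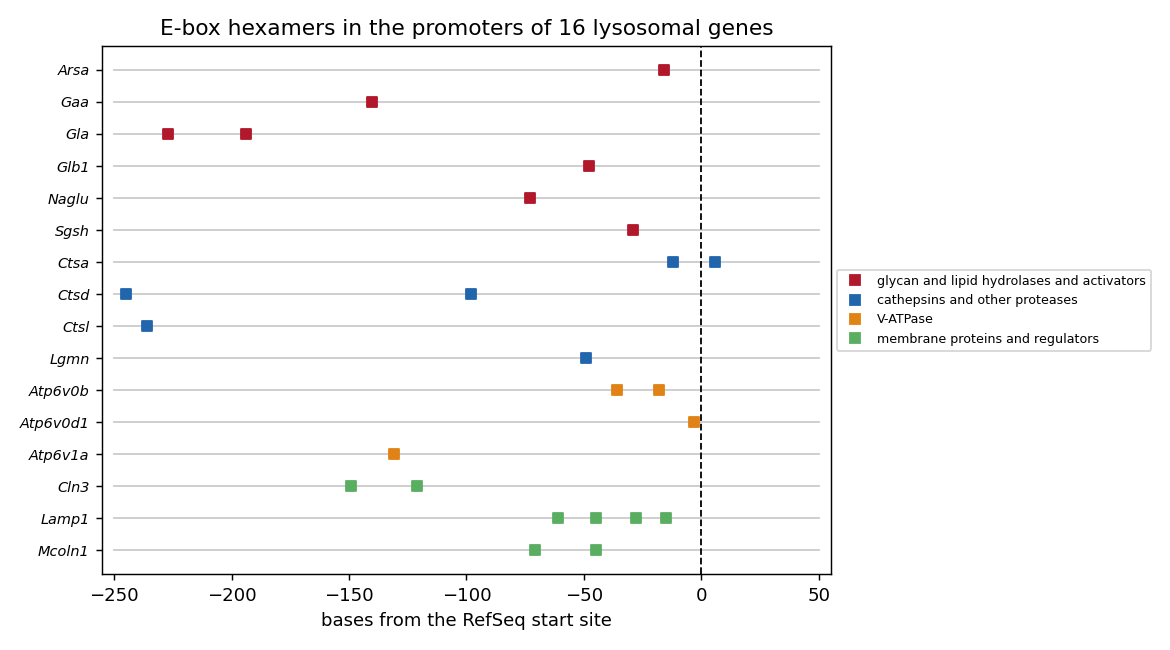
Position of each CACGTG hexamer (squares, first base) in the promoter windows of the 16 genes that hold one, in bases from the RefSeq start site (dashed line), coloured by class; grey lines mark the window from -250 to 50. Lamp1 holds 4 squares, and 1 square, in Ctsa, lies after the start site while all others lie before it.

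The 48 genes together took 3.58% ± 0.0860 of the counted reads in TMP195+TNFα, 3.08% ± 0.254 in TPCA-1+TNFα, 3.08% ± 0.0781 in TNFα and 4.22% ± 0.124 in DMSO (SD, n = 4 each). The lowest DMSO library, at 4.04%, was above the highest of the other 12 libraries, at 3.71%. Within TPCA-1+TNFα the shallow library TPCA-1+TNFα 2 was highest, at 3.4%, and the rest of the group ran from 2.78% to 3.09%. Proteases took 1.58% ± 0.0175 in TMP195+TNFα, 1.16% ± 0.122 in TPCA-1+TNFα, 1.37% ± 0.0263 in TNFα and 1.90% ± 0.0961 in DMSO, with no overlap between any of the groups. This share leans on Ctsb, the protease with the most reads, at a mean of 9562 CPM in DMSO and 4546 CPM in TPCA-1+TNFα. It does not describe each protease. Hydrolases and activators took 1.07% ± 0.0240 in TMP195+TNFα, 0.900% ± 0.0600 in TPCA-1+TNFα, 0.799% ± 0.0227 in TNFα and 1.15% ± 0.0239 in DMSO. Pump subunits took 0.406% ± 0.00842, 0.441% ± 0.0250, 0.392% ± 0.0129 and 0.4455% ± 0.00795 in the same order, and TPCA-1+TNFα overlapped DMSO. Membrane proteins and regulators took 0.523% ± 0.0412, 0.5805% ± 0.0787, 0.519% ± 0.0430 and 0.729% ± 0.0559. Per length, prosaposin (Psap) led in DMSO cells with 7041 TPM (transcripts per 1000000), followed by the cathepsins Ctsb (4365 TPM), Ctsd (3173 TPM) and Ctss (2972 TPM). At the other end were Tfeb (6.64 TPM), the osteoclast protease Ctsk (7.84 TPM) and the sulfatase Arsa (10.6 TPM). Ctsk was also the member with the fewest reads, 12 in its lowest library.

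In TNFα against DMSO, 20 of the 48 genes fell and 2 rose, where 12.4% of all 12612 tested genes were lower and 10.9% higher (edgeR's quasi-likelihood test, Benjamini-Hochberg adjusted p under 0.05 over all genes tested). The median log2 change of the 48 was -0.37, against 0.00 over all genes tested. Falls were spread over all 4 classes, with 12 of the 18 hydrolases and activators, 3 of the 11 proteases, 3 of the 10 pump subunits and 2 of the 9 membrane proteins and regulators. The labels do not state that libraries of the same number are pairs, but in these groups such libraries deviated together. A block by replicate number was therefore run as an alternative, on a pairing read from these data and not from the design. With it, 26 fell and 3 rose, with 16.9% of all genes lower and 15.1% higher.

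In TMP195+TNFα against TNFα, 3 of the 48 rose (Psap, Atp6v0d2 and Mcoln1) and 1 fell (Ctsc), where 2.95% of all tested genes were higher and 3.0% lower. The median log2 change was 0.09 for the 48 and 0.02 over all genes tested. With the replicate block, 8 rose and 3 fell, with 6.91% of all genes higher and 6.56% lower.

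In TPCA-1+TNFα against TNFα, 7 rose (Gusb, Sgsh, Atp6v0a1, Atp6v0d1, Scarb2, Laptm5 and Tfeb) and 4 fell (Ctsb, Ctsc, Ctss and Tpp1), where 9.67% of all tested genes were higher and 9.72% lower. The median log2 change was 0.10 for the 48 and 0.02 over all genes tested. Without the block, the 4 falls were proteases. Without TPCA-1+TNFα 2, 6 rose and 3 fell: Sgsh, Ctss, Tpp1 and Atp6v0d1 were lost, and Gm2a and Ctsz were gained, with 15.3% of all genes called in either direction. The count of 11, with 19.4% of all genes called, became 18 without TPCA-1+TNFα 1, with 25.9% of all genes called, and 7 without TNFα 1, with 12.9% of all genes called. The comparisons share libraries, so that a low TNFα value enters both as a fall against DMSO and as a rise with an inhibitor. Values of each comparison are therefore given side by side below.

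**Figure D2:**
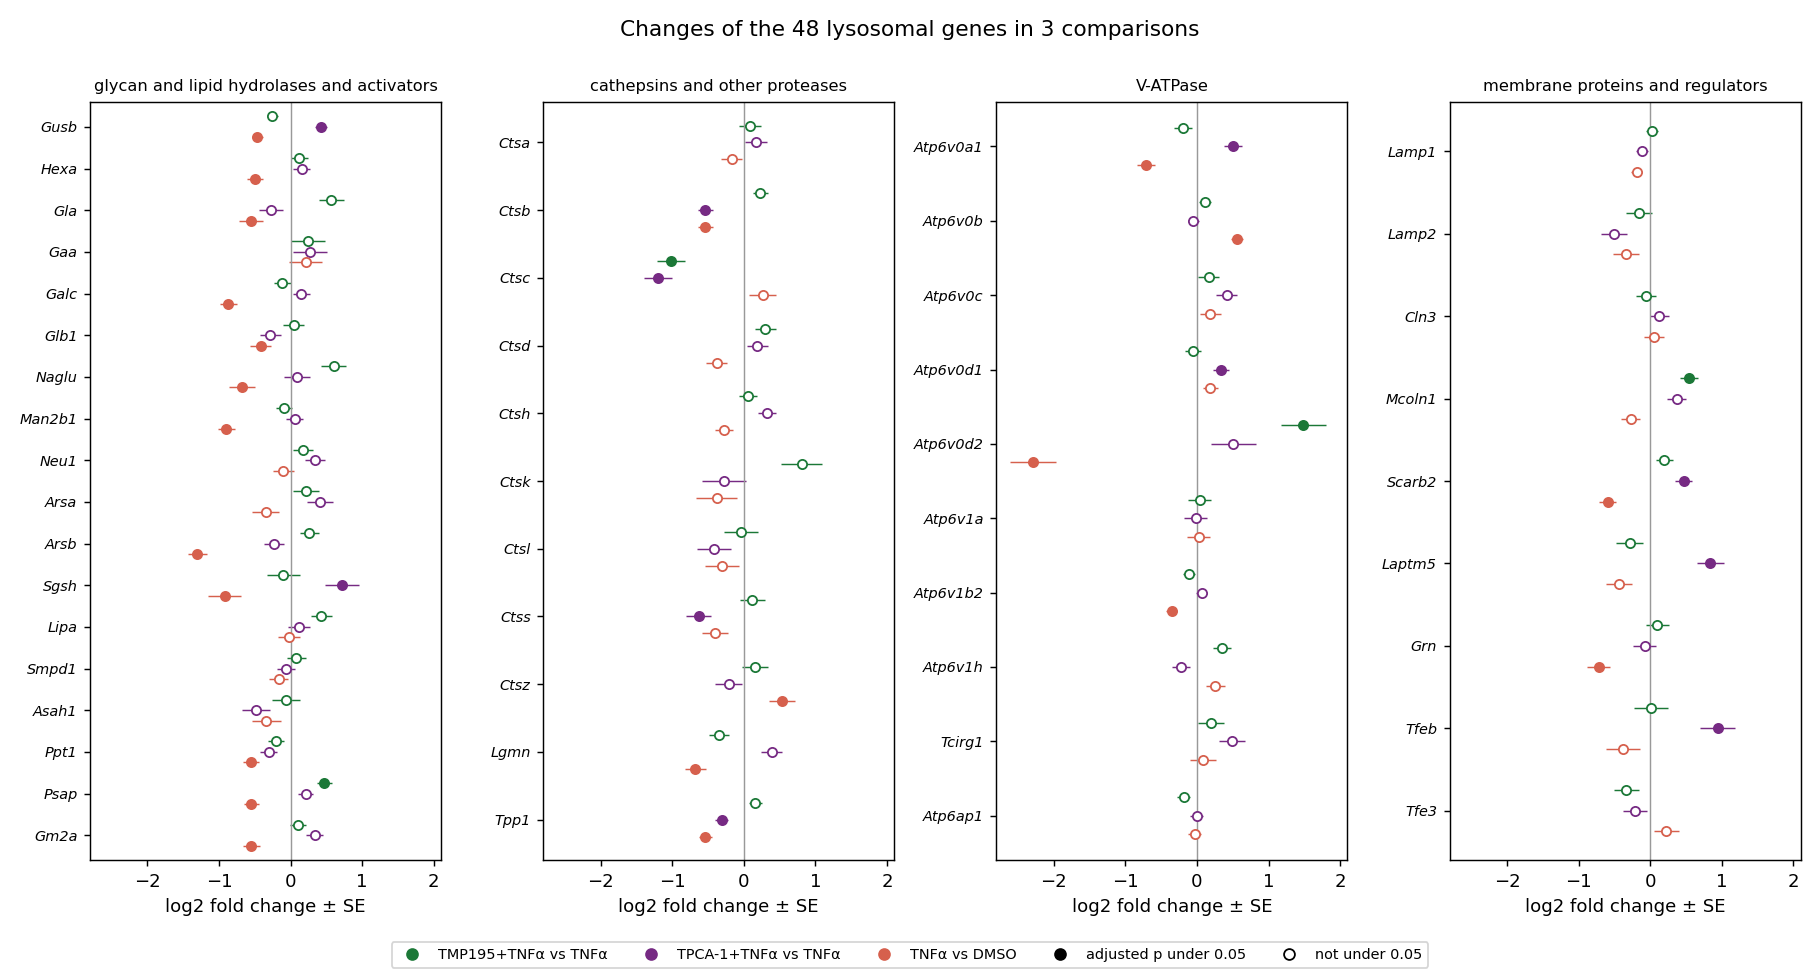
Log2 fold change ± SE of each of the 48 genes, in 4 panels by class, for TMP195+TNFα against TNFα (green), TPCA-1+TNFα against TNFα (purple) and TNFα against DMSO (red); filled points have an adjusted p under 0.05. In the panel of hydrolases and activators, 12 of the 18 red points are filled and lie left of 0, and Atp6v0d2 has the lowest red and the highest green point of all.

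Hydrolases and their activators were the class with the most falls after TNFα: 12 of 18 fell and none rose, with a median log2 change of -0.52. Arsb, which removes sulfate from dermatan and chondroitin sulfate, fell most within the class. It measured 20.2, 16.4, 18.9 and 15.4 CPM in TNFα libraries, against 50.5, 35.8, 46.5 and 42.2 CPM in DMSO libraries (log2 change -1.30 ± 0.13, adjusted p = 1.67e-06). The 4 TNFα values all lay below the 4 DMSO values. Man2b1, the lysosomal alpha-mannosidase, measured 156, 165, 178 and 194 CPM in TNFα libraries, against 319, 274, 322 and 379.5 CPM in DMSO libraries (log2 change -0.90 ± 0.12, adjusted p = 2.004e-05). Galc, which splits galactosylceramide, measured 45.6, 43.4, 42.9 and 36.3 CPM in TNFα libraries, against 78.01, 65.2, 90.3 and 73.9 CPM in DMSO libraries (log2 change -0.87 ± 0.12, adjusted p = 2.69e-05). For Man2b1 and Galc, as for Arsb, the groups did not overlap, and levels after TNFα were 0.405 of those in DMSO for Arsb, 0.536 for Man2b1 and 0.547 for Galc.

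Gusb, the beta-glucuronidase, was moved by both TNFα and TPCA-1. It measured 262, 229, 250 and 236 CPM in TMP195+TNFα, 402, 376, 402 and 386 CPM in TPCA-1+TNFα, 293, 275, 312 and 287 CPM in TNFα and 416, 373, 411 and 413 CPM in DMSO. The fall in TNFα against DMSO (log2 change -0.47 ± 0.08, adjusted p = 2.45e-04) and the rise in TPCA-1+TNFα against TNFα (log2 change 0.42 ± 0.08, adjusted p = 0.00100) each left no overlap between the groups. TPCA-1+TNFα and DMSO libraries overlapped (log2 change -0.04 ± 0.08, adjusted p = 0.718). With TMP195 the level lay below that of TNFα in all 4 libraries, short of the threshold without the block (log2 change -0.26 ± 0.08, adjusted p = 0.0646) and past it with the block (log2 change -0.26 ± 0.07, adjusted p = 0.0165).

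The other falls among hydrolases in TNFα against DMSO included the heparan sulfate enzymes Sgsh (-0.92 ± 0.23, log2) and Naglu (-0.68 ± 0.18). Others were the alpha-galactosidase Gla (-0.56 ± 0.17), the palmitoyl thioesterase Ppt1 (-0.55 ± 0.12), the hexosaminidase subunit Hexa (-0.49 ± 0.12) and the beta-galactosidase Glb1 (-0.42 ± 0.15). The sphingolipid activators Psap (-0.55 ± 0.11) and Gm2a (-0.55 ± 0.12) fell as well. The call of Gla ended without any 1 of TNFα 3, TNFα 4, DMSO 1, DMSO 2 or DMSO 3 (adjusted p between 0.0584 and 0.0857). The call of Glb1 ended without any 1 of TNFα 1, TNFα 2, TNFα 3, DMSO 1, DMSO 3 or DMSO 4 (adjusted p between 0.0760 and 0.154), with DESeq2's size factors and with no filter on low counts. Values for the remaining 6 were 0.21 ± 0.23 for the alpha-glucosidase Gaa, -0.10 ± 0.14 for the sialidase Neu1, -0.35 ± 0.18 for Arsa, -0.02 ± 0.15 for the acid lipase Lipa, -0.17 ± 0.13 for the sphingomyelinase Smpd1 and -0.34 ± 0.20 for the ceramidase Asah1. Of these, Arsa passed the threshold with the block (log2 change -0.34 ± 0.12, adjusted p = 0.0356).

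Psap was the hydrolase-class gene that rose with TMP195. Prosaposin, which is cut into saposins that present sphingolipids to their hydrolases, lies at chr10:60277627-60302597 (GRCm38, gene span). It measured 6455, 6267, 6777 and 6972 CPM in TMP195+TNFα, 4484, 6368, 5953 and 5286 CPM in TPCA-1+TNFα, 4540, 4493, 5106 and 4960 CPM in TNFα and 7078, 6474, 6933 and 7485 CPM in DMSO. All TMP195+TNFα libraries were above all TNFα libraries (log2 change 0.47 ± 0.11, adjusted p = 0.0143) and overlapped those of DMSO. TPCA-1+TNFα libraries overlapped those of TNFα (log2 change 0.21 ± 0.11, adjusted p = 0.182).

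Besides Gusb, Sgsh rose with TPCA-1. It measured 10.7, 27.4, 13.7 and 20.8 CPM in TPCA-1+TNFα libraries, against 8.75, 11.2, 9.99 and 13.4 CPM in TNFα libraries (log2 change 0.72 ± 0.23, adjusted p = 0.0386). The groups overlapped, with the shallow library TPCA-1+TNFα 2 highest, and the call ended without any 1 of TPCA-1+TNFα 2, TPCA-1+TNFα 4, TNFα 1, TNFα 2 or TNFα 3 (adjusted p between 0.0738 and 0.156) and in a fit of these groups alone. Without TPCA-1+TNFα 2 itself the adjusted p was 0.156. Changes of the other 16 hydrolases and activators ran from -0.49 ± 0.20 (Asah1) to 0.41 ± 0.19 (Arsa) with TPCA-1. With TMP195 the 17 other than Psap ran from -0.26 ± 0.08 (Gusb) to 0.60 ± 0.18 (Naglu). With the block, Gla (log2 change 0.58 ± 0.10, adjusted p = 0.00113), Naglu (log2 change 0.60 ± 0.15, adjusted p = 0.0167) and Lipa (log2 change 0.44 ± 0.12, adjusted p = 0.0254) also passed the threshold as higher with TMP195. Lipa, which frees cholesterol and fatty acids from lipoprotein lipids, measured 2169, 2081, 2000 and 1816 CPM in TMP195+TNFα, above all 4 TNFα values of 1658, 1624, 1551 and 1152 CPM.

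**Figure D3:**
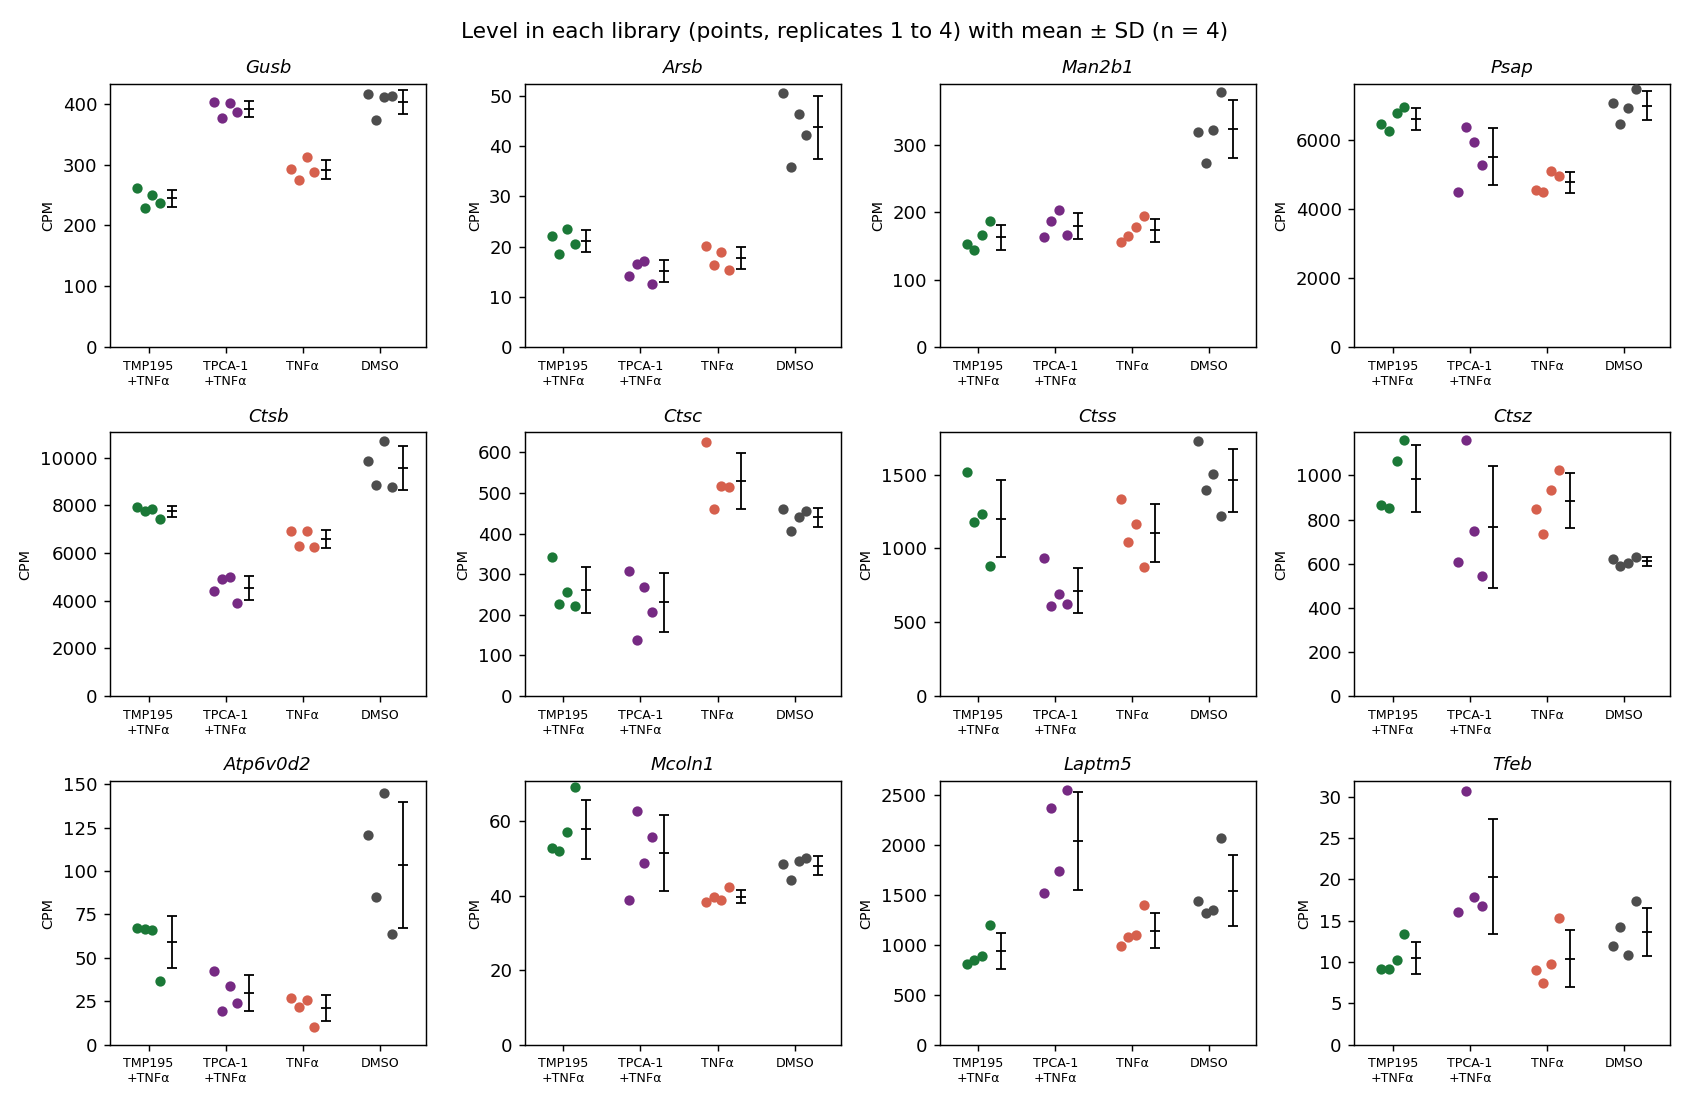
CPM in each library (points, replicates 1 to 4 from left to right) with mean ± SD (n = 4) for 12 of the genes, in the order TMP195+TNFα, TPCA-1+TNFα, TNFα, DMSO; each axis starts at 0. Ctsc is lower in both inhibitor groups than in TNFα, Ctsb is lowest in TPCA-1+TNFα, and Laptm5 and Tfeb are highest in TPCA-1+TNFα on average.

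Among the 11 proteases, Ctsb, Lgmn and Tpp1 fell and Ctsz rose in TNFα against DMSO. Cathepsin B (Ctsb, chr14:63122462-63145923), a broad cysteine protease and the most abundant of the class per length in DMSO cells, also differed between the inhibitors. It measured 7953, 7756, 7855 and 7441 CPM in TMP195+TNFα, 4401, 4905, 4980 and 3897 CPM in TPCA-1+TNFα, 6915, 6279, 6921 and 6271 CPM in TNFα and 9885, 8866, 10721 and 8776 CPM in DMSO. None of the 4 groups overlapped any other. It fell in TNFα against DMSO (log2 change -0.54 ± 0.10, adjusted p = 7.35e-04) and fell further in TPCA-1+TNFα against TNFα (log2 change -0.54 ± 0.10, adjusted p = 0.00119). In TMP195+TNFα all 4 libraries were above those of TNFα, with an adjusted p short of the threshold (log2 change 0.23 ± 0.10, adjusted p = 0.214).

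Tpp1, the tripeptidyl peptidase lost in a form of neuronal ceroid lipofuscinosis, followed the same order. Its values were 471, 437, 430.5 and 442 CPM in TMP195+TNFα, 334, 273, 372 and 306 CPM in TPCA-1+TNFα, 414, 395, 398 and 384 CPM in TNFα and 597, 549, 595 and 565 CPM in DMSO, with no overlap between TNFα and any other group. It fell in TNFα against DMSO (log2 change -0.54 ± 0.09, adjusted p = 2.68e-04) and in TPCA-1+TNFα against TNFα (log2 change -0.31 ± 0.09, adjusted p = 0.0250). The call against TNFα was lost without any 1 of TPCA-1+TNFα 2, TPCA-1+TNFα 4, TNFα 1, TNFα 2 or TNFα 3 (adjusted p between 0.0518 and 0.0692), with no filter and in a fit of these groups alone.

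Cathepsin S (Ctss), which cuts the invariant chain of MHC class II, measured 932, 606, 693 and 623 CPM in TPCA-1+TNFα, against 1335, 1046, 1168 and 873 CPM in TNFα (log2 change -0.63 ± 0.18, adjusted p = 0.0183). The groups overlapped, with TPCA-1+TNFα 1 above TNFα 4, and the call ended without any 1 of TPCA-1+TNFα 2, TPCA-1+TNFα 4 or TNFα 1 (adjusted p between 0.0551 and 0.0685). In TNFα against DMSO, where DMSO libraries held 1727, 1396, 1506 and 1216 CPM, Ctss passed the threshold with the block (log2 change -0.41 ± 0.08, adjusted p = 0.00110) and not without it (log2 change -0.40 ± 0.18, adjusted p = 0.115).

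Cathepsin C (Ctsc, chr7:88278085-88310888), the dipeptidyl peptidase that activates granule serine proteases, was lower with both inhibitors. It measured 343, 227, 257 and 220.4 CPM in TMP195+TNFα, 307, 139, 269 and 207 CPM in TPCA-1+TNFα, 625, 460.1, 517 and 514 CPM in TNFα and 459.6, 408, 439.6 and 456 CPM in DMSO. Every library with an inhibitor lay below every TNFα library and every DMSO library. The fall was -1.01 ± 0.19 (log2) in TMP195+TNFα against TNFα (adjusted p = 0.00475) and -1.20 ± 0.19 in TPCA-1+TNFα against TNFα (adjusted p = 3.001e-04). Both comparisons use the same TNFα libraries. Against DMSO the changes were -0.75 ± 0.19 with TMP195 (adjusted p = 0.00681), -0.93 ± 0.19 with TPCA-1 (adjusted p = 0.00139) and 0.26 ± 0.19 with TNFα alone (adjusted p = 0.376). In TNFα all 4 libraries were at or above the highest DMSO library.

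Legumain (Lgmn), the asparaginyl endopeptidase that processes several cathepsins, measured 651, 542, 471 and 543 CPM in TMP195+TNFα, 948, 933, 734 and 1059 CPM in TPCA-1+TNFα, 768, 693, 558 and 788 CPM in TNFα and 1313, 998, 967 and 1214 CPM in DMSO. It fell in TNFα against DMSO with no overlap (log2 change -0.68 ± 0.14, adjusted p = 0.00187). In TMP195+TNFα against TNFα it passed the threshold as lower with the block (log2 change -0.34 ± 0.08, adjusted p = 0.0116) and not without it (log2 change -0.35 ± 0.14, adjusted p = 0.183). Its change in TPCA-1+TNFα against TNFα was 0.39 ± 0.14 (adjusted p = 0.0670).

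Cathepsin Z (Ctsz), a carboxypeptidase, was the protease that rose with TNFα, to 849, 733, 932 and 1025 CPM, against 623, 587, 603 and 628 CPM in DMSO (log2 change 0.54 ± 0.19, adjusted p = 0.0458). The groups did not overlap, yet the call ended without any 1 of TNFα 1, TNFα 3, TNFα 4, DMSO 1, DMSO 2, DMSO 3 or DMSO 4 (adjusted p between 0.0657 and 0.112) and with library size alone as scaling. In TMP195+TNFα, at 867, 851, 1064 and 1161 CPM, it was also higher than in DMSO (log2 change 0.69 ± 0.19, adjusted p = 0.00966). The other proteases had changes in TNFα against DMSO of -0.17 ± 0.15 for Ctsa, a carboxypeptidase that protects Glb1 and Neu1 products, -0.38 ± 0.15 for the aspartic protease Ctsd, -0.28 ± 0.12 for the aminopeptidase Ctsh, -0.38 ± 0.29 for Ctsk and -0.31 ± 0.23 for the endopeptidase Ctsl. Ctsd and Ctsh passed the threshold with the block (log2 change -0.38 ± 0.13, adjusted p = 0.0340 for Ctsd, and log2 change -0.28 ± 0.09, adjusted p = 0.0291 for Ctsh). With TMP195 the changes other than that of Ctsc ran from -0.35 ± 0.14 (Lgmn) to 0.81 ± 0.29 (Ctsk), and Ctsk passed with the block (log2 change 0.83 ± 0.18, adjusted p = 0.00639). With TPCA-1 the 7 proteases short of the threshold ran from -0.42 ± 0.24 (Ctsl) to 0.39 ± 0.14 (Lgmn).

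The pump subunits moved in different directions. In TNFα against DMSO, 3 fell, 1 rose and 6 were short of the threshold, with a median log2 change of 0.06. Atp6v0d2 (chr4:19876841-19922605), the d2 subunit of V0 that osteoclasts and macrophages express beside d1, had the largest change of the 48 genes in that comparison. It measured 67.4, 66.4, 66.1 and 36.96 CPM in TMP195+TNFα, 42.3, 19.2, 33.8 and 24.3 CPM in TPCA-1+TNFα, 26.7, 21.7, 25.9 and 10.4 CPM in TNFα and 121, 85.1, 145 and 63.8 CPM in DMSO. Every TNFα library was below every TMP195+TNFα library and every DMSO library. It was lower in TNFα than in DMSO (log2 change -2.29 ± 0.32, adjusted p = 3.70e-05) and higher in TMP195+TNFα than in TNFα (log2 change 1.48 ± 0.31, adjusted p = 0.00906). In TPCA-1+TNFα the libraries overlapped those of TNFα (log2 change 0.51 ± 0.31, adjusted p = 0.267). The paralogue Atp6v0d1 measured 399.7, 605, 436 and 458 CPM in TPCA-1+TNFα and 373, 358, 367 and 406 CPM in TNFα. That difference passed the threshold (log2 change 0.34 ± 0.11, adjusted p = 0.0392), although the groups overlapped. It ended without any 1 of TPCA-1+TNFα 2, TPCA-1+TNFα 4, TNFα 1, TNFα 2 or TNFα 3 (adjusted p between 0.0710 and 0.131), with no filter and in a fit of these groups alone.

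The a subunits of V0 come from different genes, and Atp6v0a1 and Tcirg1 (a3) were listed. Atp6v0a1 measured 159, 147, 166 and 192 CPM in TMP195+TNFα, 229.9, 279.5, 282 and 284 CPM in TPCA-1+TNFα, 172, 172, 186 and 230.3 CPM in TNFα and 336, 260.3, 302 and 347 CPM in DMSO. It fell in TNFα against DMSO with no overlap (log2 change -0.71 ± 0.12, adjusted p = 3.18e-04) and rose in TPCA-1+TNFα against TNFα (log2 change 0.50 ± 0.12, adjusted p = 0.00860), where TPCA-1+TNFα 1 lay within the TNFα range. Its change with TMP195 was -0.20 ± 0.12 (adjusted p = 0.453). Tcirg1 had changes of 0.09 ± 0.18 in TNFα against DMSO, 0.20 ± 0.18 with TMP195 and 0.49 ± 0.18 with TPCA-1.

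Atp6v0b, a proteolipid of the V0 rotor, rose with TNFα. It measured 226, 212, 244 and 233 CPM in TNFα, against 149.6, 159, 156 and 157 CPM in DMSO (log2 change 0.56 ± 0.08, adjusted p = 5.68e-05). The groups did not overlap, and the inhibitor groups, at 247 ± 14.7 CPM in TMP195+TNFα and 221 ± 15.1 CPM in TPCA-1+TNFα (SD, n = 4 each), overlapped that of TNFα. Of the V1 part, Atp6v1b2 fell, to 1241, 1277, 1180 and 1196 CPM in TNFα, against 1597, 1635, 1579 and 1446 CPM in DMSO (log2 change -0.35 ± 0.08, adjusted p = 0.00327), again with no overlap. Atp6v1a, the catalytic subunit, had changes between -0.02 ± 0.16 and 0.04 ± 0.16 in these 3 comparisons, and the accessory subunit Atp6ap1 between -0.18 ± 0.09 and 0.00 ± 0.09. Atp6v1h, which regulates the coupling of V1 to V0, had 0.26 ± 0.13 in TNFα against DMSO and 0.35 ± 0.13 with TMP195, both short of the threshold. With the block they passed it (log2 change 0.25 ± 0.08, adjusted p = 0.0259 in TNFα against DMSO, and log2 change 0.35 ± 0.08, adjusted p = 0.00920 with TMP195). Atp6v0c, the main proteolipid, had 0.19 ± 0.14 in TNFα against DMSO, 0.16 ± 0.14 with TMP195 and 0.41 ± 0.14 with TPCA-1. It has annotated pseudogenes, so its count of uniquely mapped reads is less certain. Subunits short of the threshold ran from -0.20 ± 0.12 (Atp6v0a1) to 0.35 ± 0.13 (Atp6v1h) with TMP195, and from -0.22 ± 0.13 (Atp6v1h) to 0.51 ± 0.31 (Atp6v0d2) with TPCA-1.

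**Figure D4:**
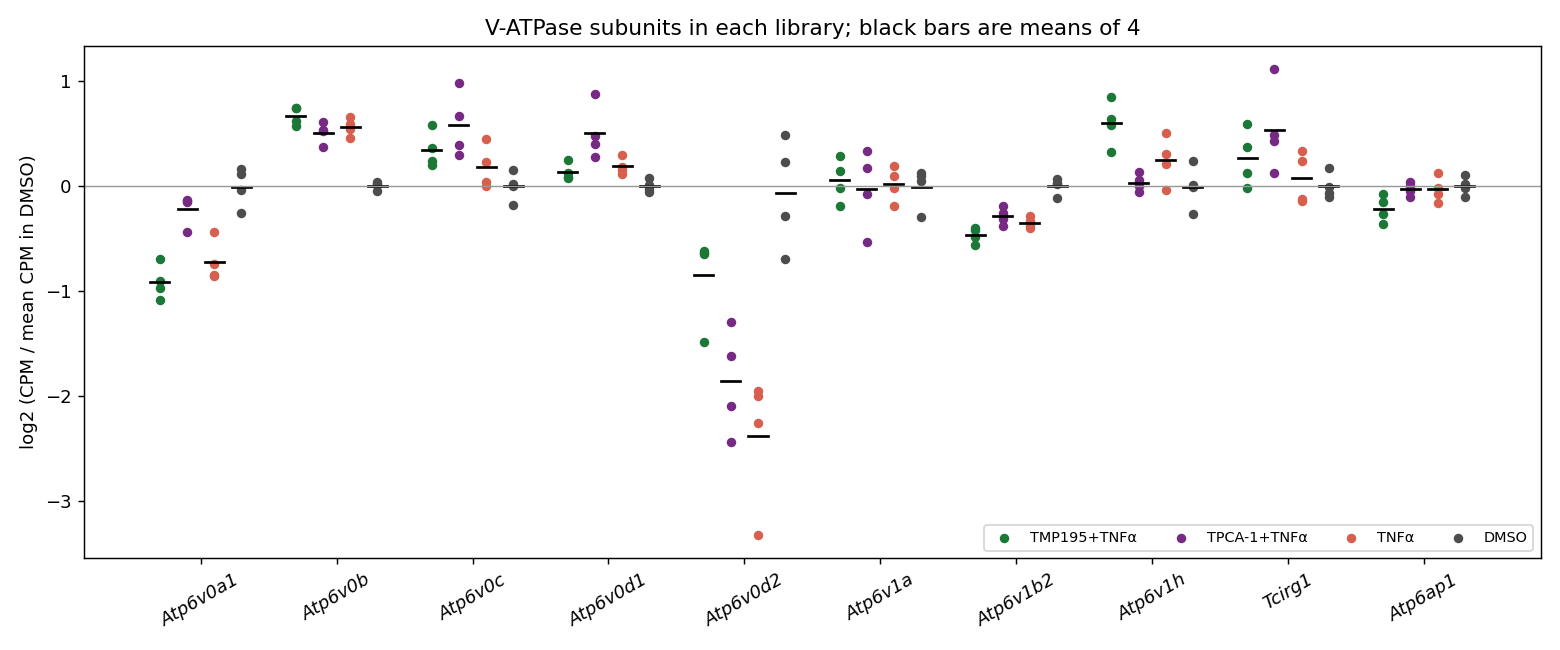
Log2 of the CPM in each library over the mean CPM in DMSO for the 10 pump subunits; points are libraries, coloured by group in the order TMP195+TNFα, TPCA-1+TNFα, TNFα, DMSO from left to right, and black bars are means of 4. Atp6v0d2 spreads furthest, Atp6v0a1 and Atp6v1b2 lie below 0 in all TNFα libraries, and Atp6v0b lies above 0 in every library that received TNFα.

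Of the membrane proteins and regulators, Scarb2 and Grn fell in TNFα against DMSO and none rose. Progranulin (Grn), which is cut into granulins in the lysosome, measured 1393, 1349, 1515 and 1995 CPM in TNFα, against 2772, 2224, 2445 and 2818 CPM in DMSO (log2 change -0.71 ± 0.16, adjusted p = 0.00294), with no overlap. Scarb2, the membrane protein LIMP-2 that carries glucocerebrosidase to the lysosome, measured 107, 114, 97.1 and 108 CPM in TPCA-1+TNFα, 82.3, 83.3, 79.8 and 62.7 CPM in TNFα and 125, 121, 119 and 98.9 CPM in DMSO. All TNFα libraries were below those of both other groups, with a fall against DMSO (log2 change -0.59 ± 0.12, adjusted p = 0.00106) and a rise in TPCA-1+TNFα against TNFα (log2 change 0.47 ± 0.12, adjusted p = 0.00982).

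Mcoln1, the lysosomal calcium channel TRPML1, rose with TMP195 and measured 52.9, 52.1, 57.2 and 69.2 CPM in TMP195+TNFα, 39.01, 62.7, 48.7 and 55.7 CPM in TPCA-1+TNFα, 38.4, 39.6, 38.8 and 42.3 CPM in TNFα and 48.4, 44.4, 49.3 and 50.1 CPM in DMSO. Each TMP195+TNFα value lay above all TNFα and all DMSO values (log2 change 0.54 ± 0.13, adjusted p = 0.0169 against TNFα). The call ended without any 1 of TMP195+TNFα 4, TNFα 1 or TNFα 3 (adjusted p between 0.0542 and 0.0598). Against DMSO the change was 0.27 ± 0.13 (adjusted p = 0.136), and the change with TPCA-1 against TNFα was 0.37 ± 0.13 (adjusted p = 0.0522).

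Laptm5 (chr4:130913125-130936141), a membrane protein of lysosomes in blood cells that takes part in receptor turnover, rose with TPCA-1. It measured 803, 850.4, 886 and 1199 CPM in TMP195+TNFα, 1521, 2367, 1736 and 2546 CPM in TPCA-1+TNFα, 986, 1083, 1098 and 1394 CPM in TNFα and 1434, 1321, 1350 and 2065 CPM in DMSO. The TPCA-1+TNFα libraries were all above those of TNFα (log2 change 0.84 ± 0.19, adjusted p = 0.00424). In TNFα against DMSO, Laptm5 passed the threshold as lower with the block (log2 change -0.43 ± 0.10, adjusted p = 0.00438) and not without it (log2 change -0.44 ± 0.19, adjusted p = 0.105).

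Tfeb, the transcription factor that activates lysosomal genes, was the least abundant of this class per length. It measured 9.22, 9.14, 10.2 and 13.4 CPM in TMP195+TNFα, 16.03, 30.7, 17.8 and 16.7 CPM in TPCA-1+TNFα, 9.09, 7.46, 9.76 and 15.3 CPM in TNFα and 11.98, 14.2, 10.8 and 17.4 CPM in DMSO. It was higher in each TPCA-1+TNFα library than in any TNFα library (log2 change 0.94 ± 0.24, adjusted p = 0.0107), with the shallow library TPCA-1+TNFα 2 far above the other 3. Without that library the call remained, close to the threshold (adjusted p = 0.0418). Its change with TMP195 was 0.01 ± 0.24 (adjusted p = 0.993). Its relative Tfe3 had 0.23 ± 0.17 in TNFα against DMSO, -0.33 ± 0.17 with TMP195 and -0.21 ± 0.17 with TPCA-1. The main glycoproteins of the lysosomal membrane, Lamp1 and Lamp2, had -0.19 ± 0.08 and -0.33 ± 0.18 in TNFα against DMSO, and Lamp2 passed the threshold with the block (log2 change -0.34 ± 0.11, adjusted p = 0.0294). With TMP195 their changes were 0.02 ± 0.08 and -0.15 ± 0.18, and with TPCA-1 -0.11 ± 0.08 and -0.50 ± 0.18. Cln3, the membrane protein lost in juvenile neuronal ceroid lipofuscinosis, ran from -0.06 ± 0.14 to 0.13 ± 0.14 over the 3 comparisons. Genes of this class short of the threshold ran from -0.33 ± 0.17 (Tfe3) to 0.20 ± 0.12 (Scarb2) with TMP195, and from -0.50 ± 0.18 (Lamp2) to 0.37 ± 0.13 (Mcoln1) with TPCA-1.

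Set directly against each other, TMP195+TNFα exceeded TPCA-1+TNFα for 9 of the 48 genes and was below it for 7, where 13.1% of all tested genes were higher and 12.6% lower. Higher with TMP195 were 4 of the 11 proteases: Ctsk (1.08 ± 0.30, log2), Ctsb (0.77 ± 0.10), Ctss (0.75 ± 0.18) and Tpp1 (0.47 ± 0.09). The hydrolases Gla (0.84 ± 0.17), Naglu (0.51 ± 0.18) and Arsb (0.49 ± 0.14) and the pump subunits Atp6v0d2 (0.97 ± 0.31) and Atp6v1h (0.57 ± 0.13) were higher as well. Lower with TMP195 were Laptm5 (-1.13 ± 0.19), Tfeb (-0.93 ± 0.24), Sgsh (-0.82 ± 0.23), Lgmn (-0.74 ± 0.14), Atp6v0a1 (-0.69 ± 0.12), Gusb (-0.68 ± 0.08) and Atp6v0d1 (-0.39 ± 0.11). For Ctsb, Tpp1, Gla, Arsb, Atp6v1h, Laptm5, Tfeb, Lgmn, Atp6v0a1, Gusb and Atp6v0d1 the libraries of the groups did not overlap. Overlap was not counted over all tested genes, so this describes each gene by itself.

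Adjusted p of the called genes in this direct comparison ran from 7.89e-06 (Gusb) to 0.0467 (Naglu), and several calls were lost when 1 library was left out. The call of Naglu ended without any 1 of TMP195+TNFα 1, TMP195+TNFα 3, TMP195+TNFα 4, TPCA-1+TNFα 1, TPCA-1+TNFα 3 or TPCA-1+TNFα 4 (adjusted p between 0.0791 and 0.127) and, like that of Atp6v0d1, in a fit of these groups alone. That of Atp6v0d2 ended without any 1 of TMP195+TNFα 1, TMP195+TNFα 2, TMP195+TNFα 3, TPCA-1+TNFα 2 or TPCA-1+TNFα 4 (adjusted p between 0.0668 and 0.0848). That of Sgsh ended without any 1 of TPCA-1+TNFα 2 or TPCA-1+TNFα 4 (adjusted p between 0.0546 and 0.0610), and that of Arsb without TPCA-1+TNFα 4 (adjusted p = 0.0510) or with unstranded counts. Without the shallow library TPCA-1+TNFα 2, 10 genes were higher and 7 lower, with Sgsh and Atp6v0d2 lost and Galc, Psap and Ctsz gained, and 22.5% of all genes were called. The 32 genes short of the threshold ran from -0.29 ± 0.18 (Tcirg1) to 0.42 ± 0.20 (Asah1).

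**Figure D5:**
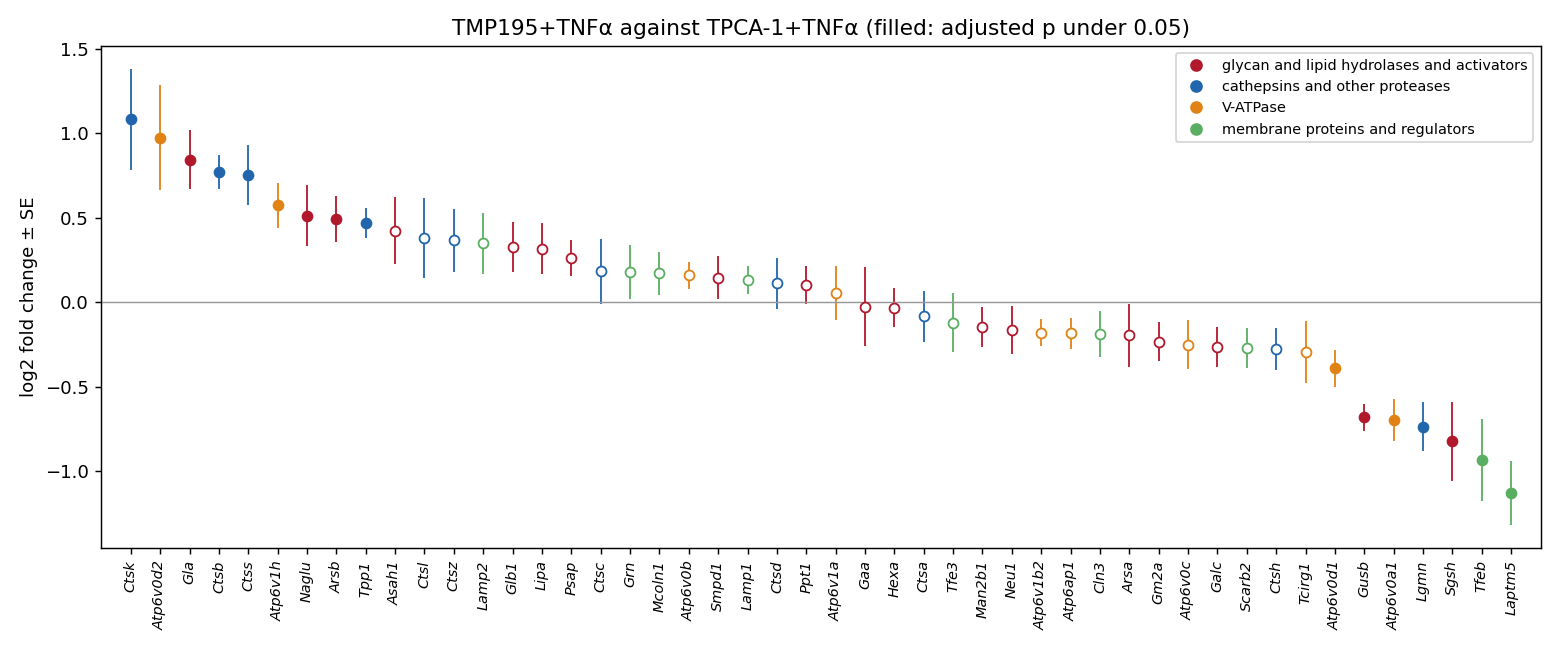
Log2 fold change ± SE of the 48 genes in TMP195+TNFα against TPCA-1+TNFα, sorted from highest to lowest and coloured by class; filled points have an adjusted p under 0.05. Proteases stand among the highest filled points, with Ctsk first, and Laptm5 and Tfeb are the lowest.

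Against DMSO, TMP195+TNFα had 3 genes higher and 17 lower, where 13.6% of all tested genes were higher and 13.9% lower. TPCA-1+TNFα had 4 higher and 20 lower, where 14.8% of all tested genes were higher and 15.5% lower. Both comparisons use the same DMSO libraries. The medians of the 48 genes were -0.25 for TMP195+TNFα and -0.21 for TPCA-1+TNFα, against 0.00 and 0.01 over all genes tested. The hydrolases Arsb, Man2b1 and Galc had -1.05 ± 0.13, -0.99 ± 0.12 and -0.99 ± 0.12 in TMP195+TNFα and -1.54 ± 0.14, -0.84 ± 0.12 and -0.72 ± 0.12 in TPCA-1+TNFα, and all 6 values were past the threshold. Psap had -0.08 ± 0.11 (adjusted p = 0.654) in TMP195+TNFα. In TPCA-1+TNFα it had -0.34 ± 0.11 (adjusted p = 0.0229), a call that ended without any 1 of TPCA-1+TNFα 1, TPCA-1+TNFα 4 or DMSO 1 (adjusted p between 0.0523 and 0.0560).

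Of the 11 proteases against DMSO, 4 were lower and 1 higher in TMP195+TNFα, and 5 lower and 0 higher in TPCA-1+TNFα. Lgmn had -1.025 ± 0.14 (adjusted p = 3.61e-05) in TMP195+TNFα and -0.29 ± 0.14 (adjusted p = 0.135) in TPCA-1+TNFα. Tpp1 had -0.37 ± 0.09 (adjusted p = 0.00478) and -0.84 ± 0.09 (adjusted p = 2.75e-06) in the same order. Of the cathepsins against DMSO, Ctsb had -0.30 ± 0.10 in TMP195+TNFα and -1.07 ± 0.10 in TPCA-1+TNFα. Its call in TMP195+TNFα ended without any 1 of TMP195+TNFα 1, TMP195+TNFα 2, TMP195+TNFα 3, TMP195+TNFα 4, DMSO 1 or DMSO 3 (adjusted p between 0.0533 and 0.115) and with no filter. Ctss had -0.28 ± 0.18 in TMP195+TNFα (adjusted p = 0.272; with the block log2 change -0.30 ± 0.08, adjusted p = 0.00973) and -1.03 ± 0.18 in TPCA-1+TNFα (adjusted p = 2.76e-04). Higher than DMSO in TMP195+TNFα were Ctsz, Atp6v0b (0.67 ± 0.08) and Atp6v1h (0.60 ± 0.13). The pump subunits Atp6v0a1 (-0.91 ± 0.12) and Atp6v1b2 (-0.47 ± 0.08) were lower than DMSO there. Higher in TPCA-1+TNFα were 4 pump subunits, Atp6v0b (0.51 ± 0.08), Atp6v0c (0.60 ± 0.14), Atp6v0d1 (0.52 ± 0.11) and Tcirg1 (0.58 ± 0.18). Another 2 were lower, Atp6v0d2 (-1.78 ± 0.315, adjusted p = 3.49e-04) and Atp6v1b2 (-0.29 ± 0.08, adjusted p = 0.0116), and the median of the 10 subunits was 0.02. The call of Atp6v1b2 ended with no filter and in a fit of these groups alone. The call of Tcirg1 ended without any 1 of TPCA-1+TNFα 2, DMSO 1, DMSO 2 or DMSO 3 (adjusted p between 0.0555 and 0.109). The call of Hexa as lower in TMP195+TNFα ended without any 1 of TMP195+TNFα 2, DMSO 1 or DMSO 3 (adjusted p between 0.0645 and 0.0765). That of Scarb2 as lower in TMP195+TNFα ended without any 1 of TMP195+TNFα 4 or DMSO 1 (adjusted p between 0.0562 and 0.0606). In TPCA-1+TNFα the call of Ctsl ended without any 1 of TPCA-1+TNFα 3, TPCA-1+TNFα 4, DMSO 2 or DMSO 3 (adjusted p between 0.0663 and 0.0956) and that of Hexa without any 1 of TPCA-1+TNFα 1, TPCA-1+TNFα 3, DMSO 1 or DMSO 3 (adjusted p between 0.0651 and 0.0936). Without TPCA-1+TNFα 2, 3 genes were higher and 21 lower than in DMSO, with 26.3% of all genes called.

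With the replicate block, TMP195+TNFα against DMSO gained as lower Glb1 (log2 change -0.38 ± 0.12, adjusted p = 0.0205), Asah1 (log2 change -0.41 ± 0.15, adjusted p = 0.0375), Ctsl (log2 change -0.36 ± 0.13, adjusted p = 0.0479) and Ctss. It also gained as lower Atp6v0d2 (log2 change -0.78 ± 0.16, adjusted p = 0.00125), Atp6ap1 (log2 change -0.21 ± 0.08, adjusted p = 0.0366) and Lamp2 (log2 change -0.50 ± 0.11, adjusted p = 0.00239), and as higher Lipa (log2 change 0.42 ± 0.12, adjusted p = 0.0130). Without the block, 12 genes passed the threshold in none of the 6 comparisons. They were the hydrolases Arsa, Gaa, Lipa, Neu1 and Smpd1, the proteases Ctsa, Ctsd and Ctsh, the pump subunits Atp6v1a and Atp6ap1, and Cln3 and Tfe3.

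Other genes of the pathway were taken from a list of 69 lysosomal genes outside the 48, of which 67 were tested. In TMP195+TNFα against TNFα, 5 of them rose and 2 fell, where 2.95% of all tested genes were higher and 3.0% lower. The rises with the smallest adjusted p were those of the hyaluronidase Hyal1 (1.43 ± 0.23, log2), the small GTPase Rragd (1.25 ± 0.22), which takes part in nutrient sensing at the lysosome, and the cystine transporter Ctns (0.40 ± 0.08). The acetyltransferase Hgsnat (-0.55 ± 0.10) and the mannose 6-phosphate receptor Igf2r (-0.52 ± 0.10) fell. In TPCA-1+TNFα against TNFα, 8 of the 67 rose and 7 fell, where 9.67% of all tested genes were higher and 9.72% lower. Among the rises, Ctns (0.48 ± 0.08), folliculin (Flcn, 0.67 ± 0.12), which restrains TFEB and TFE3, and cathepsin F (Ctsf, 1.14 ± 0.24) had the smallest adjusted p. Among the falls, Mitf (-0.86 ± 0.11), a relative of Tfeb, the acid phosphatase Acp2 (-0.59 ± 0.09) and Gnptab (-0.62 ± 0.12), which builds the mannose 6-phosphate tag, had the smallest.

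In TNFα against DMSO, 10 of the 67 rose and 19 fell, where 10.9% of all tested genes were higher and 12.4% lower. The rises included those of Tfec (1.40 ± 0.17, log2), another relative of Tfeb, and the mannose 6-phosphate receptor M6pr (0.53 ± 0.09). The falls included those of Cln6 (-1.03 ± 0.14), a gene of neuronal ceroid lipofuscinosis, and the sialic acid transporter Slc17a5 (-0.76 ± 0.10). By class, 8 of 18 hydrolases outside the 48 fell and 2 rose, with a median of -0.31. Of 9 further pump subunits 1 rose and 0 fell, with a median of 0.11. In TMP195+TNFα against TPCA-1+TNFα, 12 of the 67 were higher and 9 lower, where 13.1% of all tested genes were higher and 12.6% lower. By adjusted p, Mitf (1.19 ± 0.11), the membrane glycoprotein Gpnmb (1.59 ± 0.19) and the cholesterol carrier Npc2 (0.74 ± 0.11) came first among those higher, and Hgsnat (-0.81 ± 0.10), Igf2r (-0.78 ± 0.10) and the phospholipase relative Plbd2 (-1.25 ± 0.23) among those lower. Against DMSO, 7 of the 67 were higher and 12 lower in TMP195+TNFα, where 13.6% of all tested genes were higher and 13.9% lower. In TPCA-1+TNFα 9 of the 67 were higher and 17 lower, where 14.8% of all tested genes were higher and 15.5% lower. Cd68, of this list, is also one of the macrophage markers, and Acp5 one of the osteoclast markers.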

How the data were processed

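The authors deposited, for each of 16 libraries, whole-number counts of uniquely mapped reads per gene from STAR 2.6.1d, on builds named mm10 and GRCm38, per the submitters' processing notes; the annotation release is not given in the sources used here. Counts on the opposite-strand column of the deposited files were used, since the other strand held 3.19% to 3.72% of the reads of both strand columns together. Lines that name no gene, of which unmapped reads were 4.003% to 44.0% of a library, stayed out of library sizes. Of 54838 gene identifiers 54809 matched GENCODE M21. Genes were tested with edgeR 4.0.16 in R 4.3.3 (TMM scaling, filterByExpr, quasi-likelihood test, a mean per group over all 16 libraries, 12 residual degrees of freedom), with Benjamini-Hochberg adjustment over 12612 genes and a threshold of 0.05; all tests were two-sided. SE is the log2 change divided by the square root of F. CPM values are counts per 1000000 reads of the TMM-scaled library, and TPM values were computed from the counts and exon lengths. A count of 3 reads corresponds to 0.0950 to 0.401 CPM.

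DESeq2 1.42.0, limma 3.58.1 voom, other scalings, no filter, fits of the compared groups alone, unstranded counts, a replicate block and each library left out were the alternatives. Replicate numbers come from the titles. Of 24 same-number pairs, the correlation of deviations from group means ran from -0.0430 to 0.681 and 20 exceeded 0.1. It exceeded 0.1 in all 4 pairs for each of the comparisons without TPCA-1+TNFα, whose blocked values are printed where a call changed. The plan asked for every pair over 0.1. The 24 pairs together did not meet this, and the rule was applied to each comparison by itself. The blocked fit used all 16 libraries, so its values for these comparisons also rest on the libraries of TPCA-1+TNFα. Genes named with every library's values are up to 4 called members per class, direction and main comparison with the smallest adjusted p; further genes shown for a blocked or neighbouring value were chosen after their values were seen. Of the further lists, a few genes that this rule covers are not reported here. The members and the lists were chosen with earlier results of these data known. Promoters are from RefSeq, GRCm38.p6.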

Additional observations from a re-analysis of the deposited data

Results flagged for a closer look

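In 12 of 192 sets of 4 libraries (48 genes in 4 groups), the highest or lowest library lay apart from the other 3 by more of their range than Dixon's 95% critical value allows. Chance flags about 1 set in 20, or 9.6 of 192. In TMP195+TNFα the values were 124.3 CPM for Gm2a in replicate 2 and 36.96 CPM for Atp6v0d2 in replicate 4, both lowest. In TPCA-1+TNFα they were 63.92 CPM for Ppt1 (lowest) and 30.68 CPM for Tfeb (highest) in the shallow replicate 2, and 229.9 CPM for Atp6v0a1 in replicate 1 (lowest). In TNFα they were 265 CPM for Hexa in replicate 2 (lowest), and in replicate 4 14.38 CPM for Arsa (highest), 2.123 CPM for Ctsk (lowest) and 62.69 CPM for Scarb2 (lowest). In DMSO they were 373.2 CPM for Gusb in replicate 2 (lowest), and in replicate 4 88.16 CPM for Cln3 (highest) and 2065 CPM for Laptm5 (highest).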

How the results depend on the processing

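No called gene changed direction under any alternative run. Counts below are of the 48 genes, each followed by the share of all tested genes called under the same setting. In TMP195+TNFα against TNFα, 4 (5.95%) became 7 with DESeq2 (4.73% of 25035 genes with a p-value), 11 with limma voom (14.1%), 11 with the replicate block (13.5%) and 3 to 5 with each library left out (3.48% to 4.67%). DESeq2 ran without edgeR's filter on low counts but with its own default one. Genes that its filter set aside stay in the 25035, which lowers that share. In TPCA-1+TNFα against TNFα, 11 (19.4%) became 19 with limma voom (25.5%), 23 with the replicate block (30.4%) and 7 to 18 with each library left out (12.9% to 25.9%). The direct comparison of the inhibitors had 16 (25.7%), 25 with the replicate block (36.8%) and 12 to 17 with each library left out (19.2% to 30.4%). For TMP195+TNFα against DMSO, 20 (27.5%) became 31 with limma voom (39.0%) and 17 to 22 with each library left out (22.8% to 25.7%). TNFα against DMSO had 22 (23.4%), 31 with limma voom (34.9%), 29 with the replicate block (32.0%) and 19 to 21 with each library left out (18.2% to 21.9%). TPCA-1+TNFα against DMSO had 24 (30.3%), 30 with the replicate block (41.1%), 20 in a fit of these groups alone (24.7%) and 21 to 26 with each library left out (22.9% to 35.1%). Both counts stayed within 1.5 times under every alternative run. The causes were not tested.

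In comparisons with TPCA-1+TNFα, pairing by number was not accepted, because same-numbered libraries did not correlate above 0.1 in every pair: the pairs of the shallow TPCA-1+TNFα 2 had -0.00660 with TMP195+TNFα, -0.0430 with TNFα and 0.0196 with DMSO, and TPCA-1+TNFα 4 had 0.0864 with TMP195+TNFα. The other pairs exceeded 0.1, and 15 of 16 libraries correlated best with those of their own number, a hint from the data and not from the design. With the block, TPCA-1+TNFα against TNFα had 16 of the 48 genes higher and 7 lower, where 1999 of all 12612 tested genes were higher and 1836 lower. Those gained as higher included the proteases Lgmn (log2 change 0.39 ± 0.08, adjusted p = 0.00221) and Ctsh (log2 change 0.31 ± 0.09, adjusted p = 0.0180). Those gained as lower were Asah1 (log2 change -0.52 ± 0.15, adjusted p = 0.0152), Ppt1 (log2 change -0.31 ± 0.09, adjusted p = 0.0115) and Lamp2 (log2 change -0.51 ± 0.11, adjusted p = 0.00316), which are no proteases. The block ended no call of the 48 genes. Depth limits low genes such as Ctsk, Arsa and Tfeb and the shallow library TPCA-1+TNFα 2.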
